A study of Danio rerio with 24 samples.

Results

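The macrophage marker genes described here are 10 gene names: mpeg1.1, mpeg1.2, mfap4, marco, csf1ra, csf1rb, c1qa, c1qb, c1qc and cd74a. They were chosen by name and not by a rule on measured values, but with earlier results of these data known. The names were looked for, ignoring case, among the 18987 genes listed for the ventricles of this series. All 10 names were listed, on 21 rows, because the name mfap4 stands on 12 of them. The series compared swimming-induced exercise with rest in adult wild-type zebrafish after cryoinjury, in which part of the ventricle is killed by freezing. Its 24 RNA samples fall into 6 groups of 4, exercised cryoinjured, non-exercised cryoinjured and non-exercised sham-operated fish, each at 7 and 14 days post injury (dpi). Exercised fish swam daily against a current in a tunnel, starting a few days after the injury, and the others were kept at rest. Each sample pooled 3 or 4 whole ventricles, so that the number of macrophages and the RNA per macrophage cannot be told apart in any value below.

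The values are 1 mean normalized count per gene, a read count corrected for sequencing depth and averaged by the authors over their samples. Which samples entered that mean is not stated. The deposited table has 0 columns of values for single samples, which leaves the SD, n and depth of each value unknown, and neither exercised and non-exercised fish nor 7 and 14 dpi were compared here. The mean counts were not divided by gene length, and an order by mean count is therefore an order of reads and not of transcripts. With 1 value per gene, no neighbours in such an order could be tested against each other.

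Macrophages are phagocytes that arise from the yolk sac and from blood-forming tissue, depend on signals through the CSF1 receptor, engulf dead cells and shape the scar. In the cryoinjured zebrafish heart they enter the wound and remain through the phase of scar removal. The marker genes cover different parts of this work: growth factor reception, killing of engulfed microbes, capture of particles, tagging of debris by complement and presentation of antigen.

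The most heavily read marker was cd74a (ENSDARG00000009087), which encodes the invariant chain that guides MHC class II molecules to the compartment where they load peptides. Its mean normalized count was 2944.4, the 506th highest of all listed genes. It took 57.4% of the 5133.6 reads that the 21 rows hold together. The rest of the rows held 2189.2 reads. Of every 1000000 reads in the mean counts summed over all genes, cd74a had 249 and all marker rows together 434. Its paralog cd74b, which is not one of the markers, had a mean count of 1191.9, the highest of 4 listed genes of antigen presentation (of 8 looked for), whose rows had a median of 222.3. The invariant chain is also made by B cells and dendritic cells. Of the 7 B cell markers looked for, 3 were listed, on 4 rows, with mean counts from 2.33 for pax5 to 20.6 for the higher of the rows named cd22. The markers cd79a, cd79b, ighm and ighz were not found by name, so their levels are unknown here. No list of dendritic cell markers was looked for. The parts of B cells and of dendritic cells in the cd74a count were not tested.

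The scavenger receptor gene marco (ENSDARG00000059294), whose product binds bacteria and particles on the macrophage surface, had a mean normalized count of 464.9. It stood at the 84.5th percentile of all listed genes, against the 97.3rd for cd74a. Both lay above all other single rows of the markers.

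The 3 chains of C1q, the protein that starts the classical complement pathway by binding antibody complexes and dying cells, are encoded by c1qa, c1qb and c1qc. In mammals macrophages are a main source of C1q. The mean normalized count was 165.5 for c1qa (ENSDARG00000044613), 235.7 for c1qb (ENSDARG00000044612) and 268.6 for c1qc (ENSDARG00000095627). The highest was 1.62 times the lowest in reads, and c1qc was 1.14 times c1qb. The chains together had 669.9 reads. In the reference assembly GRCz12tu the genes follow each other in the order c1qb, c1qc and c1qa, with 0 annotated genes between them. Among 8 further complement genes looked for by name, 4 were listed. Their median was 168.0, and the mean counts ran from 1.14 for c1r, the protease that C1q activates in mammals, to 1862.3 for c4. In between, c1s had 110.3 and c3a.1 225.6. The genes c2, c3b.1, c4b and serping1 were not found by name.

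Zebrafish have a pair of CSF1 receptor genes, receptor tyrosine kinases on which macrophages depend for survival, and csf1ra also acts in pigment cells. The mean normalized count of csf1ra (ENSDARG00000102986) was 247.9 and that of csf1rb (ENSDARG00000053624) was 83.9, a ratio of 2.95 in reads. The first stood at the 73.7th percentile of all listed genes and the second, at the 51.1st, near the median gene. Of the ligands, csf1a had a mean count of 34.2 and il34 of 72.0, and csf1b was not found by name. Both listed ligands were below the median gene, at 79.6. In GRCz12tu, csf1ra lies near cd74a, with 3 annotated genes between them.

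The mpeg1 genes encode perforin-2, a pore-forming protein that kills engulfed bacteria, and the mpeg1.1 promoter is widely used to label zebrafish macrophages. Their mean normalized counts differed by a ratio of 3.02 in reads, with 234.9 for mpeg1.1 (ENSDARG00000055290) and 77.9 for mpeg1.2 (ENSDARG00000043093). Thus mpeg1.1 stood at the 72.8th percentile and mpeg1.2 at the 49.6th, just below the median gene. The part of cells other than macrophages in these counts was not tested. The pair together had 312.8 reads, the csf1r pair 331.9. In GRCz12tu they lie on the same chromosome with 535 annotated genes between them.

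In the plot of mean counts by row, the highest mfap4 row, at 97.2, lies above csf1rb and mpeg1.2 and below the other genes.

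**Figure D1:**
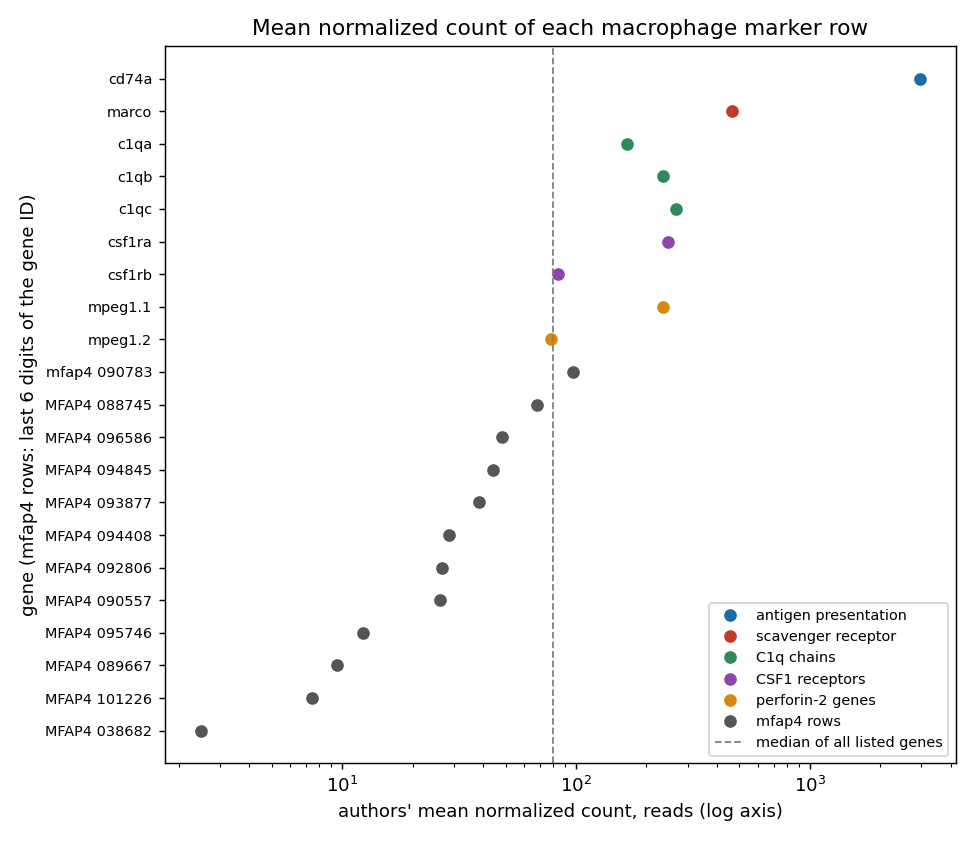
Mean normalized count of each marker row on a log axis, 1 point per row, coloured by role, with the median of all listed genes (79.6) as a dashed line. The point of cd74a, at 2944.4, stands apart on the right, and 11 of the 12 mfap4 rows lie left of the line.

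The mfap4 name stands for a family of genes in zebrafish and not for a single gene. Its products are secreted proteins with a fibrinogen-like domain, and an mfap4 promoter is used to label zebrafish macrophages. Only 1 row carries the name in lower case (ENSDARG00000090783), and it had the highest mean normalized count of the family, 97.2. The other 11 rows carry it in capitals, as a human gene name. By gene identifier, 7 of the 12 rows have a numbered symbol in the reference table of names, 4 the unnumbered symbol MFAP4, and 1 is not in that table. The GRCz12tu annotation holds 13 genes with a numbered mfap4 symbol, all on the same chromosome.

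Reads were spread widely over this family. After the row in lower case, the next highest were ENSDARG00000088745 with 68.2 and ENSDARG00000096586, mfap4.10, with 48.5. These 3 rows held 52.2% of the family's 409.8 reads, and the highest alone held 23.7%. The lowest was ENSDARG00000038682, mfap4.4, with 2.49, so that the highest row had 39.0 times the reads of the lowest. The median of the 12 rows was 27.7, and 3 of them were below 10. Only 1 of the 12 rows lay above the median gene, compared with 8 of the 9 rows of the other names. The family's sum compares with 464.9 reads for marco. How reads that match several of these similar copies were counted, or whether they were counted, is not given. The division of reads among the rows and the family's sum are therefore uncertain. A single row need not show the level of its gene.

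**Figure D2:**
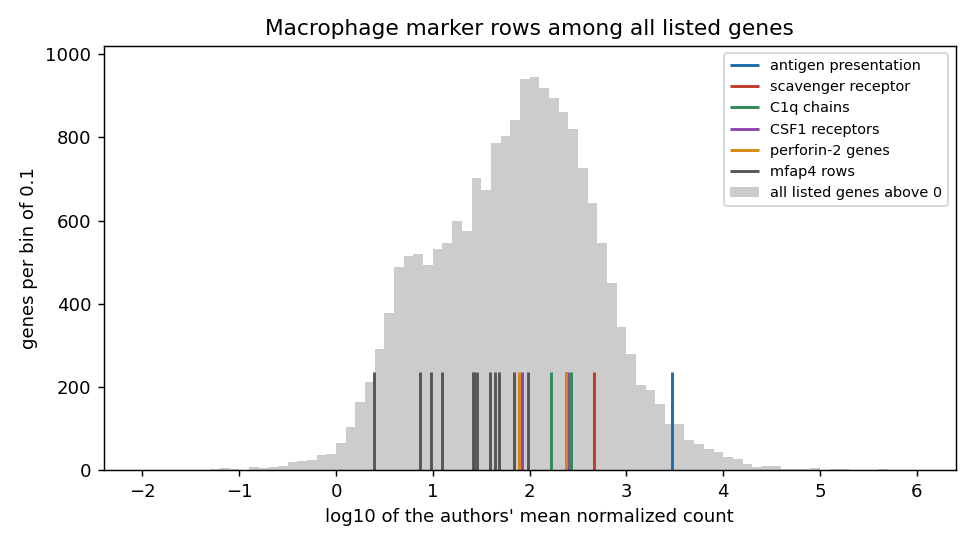
Number of listed genes per bin of 0.1 in log10 mean normalized count (grey), with each marker row as a coloured line by role. The mfap4 rows run from 2.49 to 97.2 reads, the paralogs mpeg1.2 and csf1rb sit near the median gene at 79.6, and cd74a is far to the right, at 2944.4.

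The median of the 21 marker rows was 68.2, below the median gene. It was 241.8 when the rows of each name were summed and the 10 names counted once, a change that rests on mfap4. Without mfap4 the median was 235.7.

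Several gene lists place these counts beside other macrophage genes and beside the other cells of a ventricle. Of the myeloid transcription factors, all 8 were listed, on 9 rows, with a median of 108.5 reads. They ran from 6.18 for mafbb to 559.0 for cebpb, and 6 of the 9 rows lay above the median gene. The part of cells other than myeloid cells in these counts was not tested. PU.1, which drives myeloid fate, is encoded by spi1a and spi1b, with mean normalized counts of 100.6 and 149.8. In the list of lysosome and lipid genes that macrophages use, 10 of 12 genes were found. Their median was 752.3 and the highest was cd63, with 2520.7, but other cells make these proteins too. For pan-leukocyte markers the median was 176.9, from 27.9 for fcer1g to 674.9 for the integrin gene itgb2. Of 13 genes of macrophage cytokines and activation, 8 were listed, with a median of 20.1. The cytokine genes tnfa and il1b had 3.88 and 6.28, and nos2a, an inducible nitric oxide synthase gene, had 1.01. In the same list arg2, which encodes an arginase made by many cells, had 403.4, tgfb1a 324.6 and hmox1a 146.2. These 3 of the 8 rows lay above the median gene. In between, nos2b had 12.9 and spp1 27.3. The part of macrophages in the counts of arg2, tgfb1a and hmox1a was not tested. Other scavenger and engulfment receptors ran from 3.42 for timd4 to 606.1 for stab1, which endothelial cells also express, with a median of 61.2.

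Markers of other leukocytes were read as follows. Of 9 neutrophil markers looked for, 8 were listed, with a median of 33.8, and cxcr2 was not found by name. The lowest was cxcr1, with 1.71. The myeloperoxidase gene mpx had 16.3 and lyz 43.2, whereas ncf1 had 174.2 and nccrp1 342.5. These last 2 of the 8 rows lay above the median gene. The part of neutrophils in the counts of these 2 genes was not tested. T cell markers had a median of 8.12 over 5 listed genes of 8 looked for, and cd4-1, cd8a and tcf7 were not found by name. The listed genes ran from 4.73 for il7r to 60.4 for cd3eap, which encodes a subunit of RNA polymerase I and marks no T cell. Without it the median was 7.70.

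Further lists covered heart muscle and other cells of the labelled tissue, the ventricle. No criterion for the label was set, so the counts do not test it. All 9 cardiomyocyte markers were listed, with mean normalized counts between 16750.8 for ryr2b and 399057.8 for the ventricular myosin gene vmhcl. All 7 endothelial markers were listed, with a median of 910.1, and all 8 epicardial and fibroblast markers, with a median of 798.8 and col1a1a at 12777.2. Of 7 erythroid markers looked for, 4 were listed, with a median of 2300.3, from 32.6 for gata1a to 25133.3 for hbaa1. The names hbaa2, hbba1 and hbba2 were not found. Thrombocyte markers had a median of 187.8. In the plot by list, every macrophage marker row lies below every cardiomyocyte marker in reads, whereas the marker rows and the epicardial and fibroblast genes overlap, with wt1b at 111.9 and cd74a at 2944.4. None of these lists was tested against another, since genes differ in length and in how strongly a cell expresses them.

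**Figure D3:**
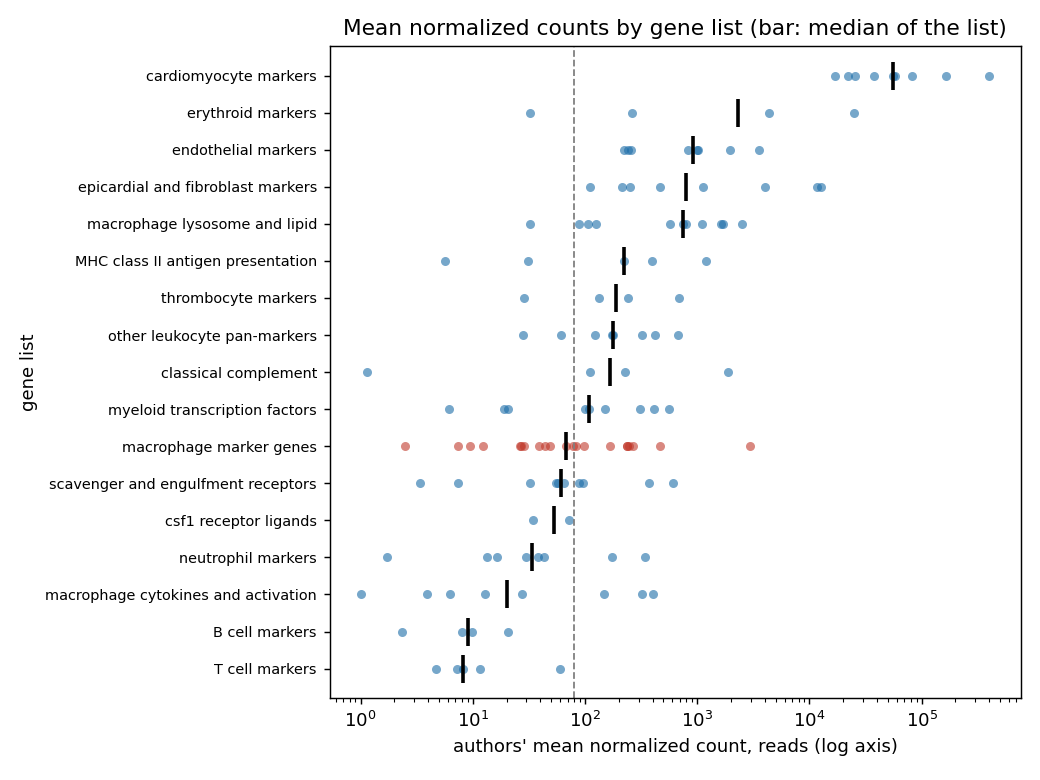
Mean normalized count of every listed gene of 17 lists on a log axis, 1 point per row of the table, with a black bar at the median of each list, the macrophage marker genes in red and the median of all listed genes (79.6) as a dashed line. Cardiomyocyte markers all lie at or above 16750.8 reads, the macrophage marker genes spread from 2.49 to 2944.4, and B cell and T cell markers have the lowest medians, 8.98 and 8.12.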

How the data were processed

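Total RNA from pools of 3 or 4 ventricles was converted to poly-A captured libraries and sequenced by the authors on an Illumina instrument. The processing notes of the authors name TopHat2 2.1.0, HTSeq 0.6.0, DESeq2 and the genome build GRCz10. The annotation release, the strand setting, the treatment of multi-mapped reads and the samples behind the mean are not given in the sources used here. The deposited table holds, for each of 18987 genes, a mean normalized count, used here as a signal per gene, as deposited and without division by length. Its other 7 columns of values hold the authors' comparisons of exercise with rest (log2 fold change, standard error, statistic, p-value, adjusted p-value and fold changes at 7 and 14 dpi), and none of them was used. The depth per sample is unknown, as 0 columns hold values per sample, so no test was run between exercised and non-exercised or sham-operated fish.

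Names were matched ignoring case, and 475 names stand on more than 1 row. Percentiles give the share of listed genes at or below a value. Only the percentile calculation was tested, on known ranks, ties and simulated counts. Identifiers of 92.6% of rows were found in the reference table of names, and 20 of the 21 marker rows. Gene order came from the RefSeq annotation of GRCz12tu, another build than that of the table, so no coordinates are given. The members and lists were chosen with earlier results of these data known. All 10 members are named. Of the other lists only some genes are named, and the highest and lowest gene are not given for every list. The genes spi1a, spi1b, tnfa, il1b, mpx and lyz were chosen after their values were seen. So were tgfb1a, hmox1a, nos2b, spp1 and ncf1. Alternatives were a minimum mean count of 10, ranking among 15624 genes with a RefSeq protein, leaving out each name and a total without the 100 highest genes. Values were computed with pandas 2.3.3 and numpy 2.4.6 under Python 3.11.15 and drawn with matplotlib 3.10.9.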

Additional observations from a re-analysis of the deposited data

How the results depend on the processing

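Of 33 alternative values, 26 were within 1.5 times the value reported and 7 were not. Many of the 26 were fixed in advance, so the tally does not measure robustness. Lists with no row under 10 kept their median under the minimum of 10. Each name other than mfap4 has 1 row, above the middle row, so leaving out any of them gave the same median. The median over the marker rows, 68.2, was 58.3 without any 1 of the names other than mfap4 and 235.7 without mfap4. With rows of 1 name summed, an alternative chosen after seeing the data, it was 241.8, and the median percentile was 73.3 instead of 47.2. The marker rows had 434 of every 1000000 reads of the summed mean counts and 806 with the 100 genes of the highest mean count left out of the total, since those genes hold 46.2% of it. With only genes of a mean count of at least 10, the median was 146.2 for macrophage cytokines and activation, against 20.1, and 36.0 for T cell markers and 20.6 for B cell markers, by construction higher because low genes were removed. Division by coding or transcript length was not run, as no length of that kind was used here. No paired analysis was possible because the table gives no value per sample. Without replicate values, the error of each mean count is unknown.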
